A study of Drosophila melanogaster with 2 samples.

Results

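The peaks described here lie in the intergenic sequence around the start sites of genes, where a factor bound outside the promoter and outside the transcribed unit is found. They were chosen by position alone, as the peaks of the optimal list thresholded by irreproducible discovery rate (the IDR list) whose summit fell outside every annotated gene, more than 500 bp from any transcription start site and under 5000 bp from the nearest start site of a protein-coding gene. The rule gave 594 of the 5844 peaks (10.2%), and they are called the intergenic proximal peaks below. The factor is Oc (ocelliless, also known as orthodenticle), and chromatin was prepared from whole embryos of Drosophila melanogaster aged 2 to 14 hours. This age is the one in the source name, and the separate age label, which gives a far greater number of hours, was not used. The line stably expresses Oc carrying GFP at its C terminus, the immunoprecipitation used an anti-GFP antibody, and the 2 libraries are biological replicates 2 and 3. The labels do not say which sequence drives the fusion. The samples form 1 group, so conditions were not compared and no test was run. All embryonic tissues were pooled, and a site bound in few cells cannot be told apart from one bound weakly in many.

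Oc is a homeodomain protein whose recognition helix carries a lysine at position 50 of the homeodomain, and proteins of this kind, such as Bicoid, prefer TAATCC over the TAATTA-type sites of most homeodomains. In the embryo oc patterns the anterior head and acts in cells of the ventral midline, and in the eye Oc activates rhodopsin genes. Enhancers of developmental genes in Drosophila often lie a few kilobases before the start site, in the kind of sequence considered here.

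As examples, the sequence around the summit is given for the peaks that have TAATCC and the highest signal. Which bases Oc contacted was not measured. Each line holds the summit base with 50 bases to either side, in genome build dm6 and RefSeq assembly release 6, 5' to 3' on the plus strand. Capitals mark TAATCC, which reads GGATTA where the site is on the minus strand.
Rh5, chr2L:12010650-12010750, plus strand, signal 1216: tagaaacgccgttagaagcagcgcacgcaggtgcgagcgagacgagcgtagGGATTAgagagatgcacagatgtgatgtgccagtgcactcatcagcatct
CG17564, chr2L:19296915-19297015, plus strand, signal 556.3: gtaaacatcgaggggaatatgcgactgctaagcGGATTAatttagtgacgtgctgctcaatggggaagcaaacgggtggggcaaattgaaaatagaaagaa
klg, chr3R:22895519-22895619, plus strand, signal 491.1: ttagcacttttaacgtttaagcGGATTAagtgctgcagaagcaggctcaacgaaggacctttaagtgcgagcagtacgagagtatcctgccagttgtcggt
tap, chr3L:17364370-17364470, plus strand, signal 468.9: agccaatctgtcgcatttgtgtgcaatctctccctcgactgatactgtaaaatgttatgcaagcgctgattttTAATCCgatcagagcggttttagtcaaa
fz3, chrX:768950-769050, plus strand, signal 446.6: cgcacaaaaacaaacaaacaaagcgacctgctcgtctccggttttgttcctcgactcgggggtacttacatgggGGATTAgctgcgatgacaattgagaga
Atet, chr2L:4333271-4333371, plus strand, signal 365.7: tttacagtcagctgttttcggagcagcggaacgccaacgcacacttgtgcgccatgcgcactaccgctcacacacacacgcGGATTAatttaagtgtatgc

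These 6 peaks lay near genes of different roles. Rh5 encodes the blue-sensitive rhodopsin of a class of inner photoreceptors. klg encodes the immunoglobulin-family adhesion protein Klingon, tap a neural basic helix-loop-helix factor, fz3 a receptor of the Frizzled family and Atet an ABC transporter. No role is given here for CG17564. The peak at Rh5 had the highest signal of all intergenic proximal peaks with a TAATCC, at 748 in replicate 2 and 475 in replicate 3, and its site was centred 3.5 bp from the summit. The summit lay 2322 bp from the Rh5 start site, beyond the 3' end of the gene. The summit at fz3 stood 945 bp upstream of its start site and had a signal of 251 in replicate 2 and 200 in replicate 3.

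Most of the strongest intergenic proximal peaks had no TAATCC within 50 bp of their summits, as was so for 535 of all 594. The sequences of 4 strong peaks without it are given in the same form.
tara, chr3R:16222449-16222549, plus strand, signal 1958: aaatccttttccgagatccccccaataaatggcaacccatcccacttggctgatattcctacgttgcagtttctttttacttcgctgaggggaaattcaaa
CG31668, chr2L:2202358-2202458, plus strand, signal 1503: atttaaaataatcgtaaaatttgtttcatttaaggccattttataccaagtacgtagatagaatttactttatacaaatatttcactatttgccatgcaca
CG43131, chr3R:5113223-5113323, plus strand, signal 1179: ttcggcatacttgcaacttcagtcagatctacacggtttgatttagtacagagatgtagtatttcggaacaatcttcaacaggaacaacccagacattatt
tara, chr3R:16224467-16224567, plus strand, signal 1172: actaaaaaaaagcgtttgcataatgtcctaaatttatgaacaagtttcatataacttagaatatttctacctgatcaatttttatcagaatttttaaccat

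The first of these, 3152 bp upstream of tara (FBgn0040071), was the strongest intergenic proximal peak and ranked 14 in the whole list. Its signal was 1050 in replicate 2 and 913 in replicate 3, where it ranked 12 and 16 in their own lists. tara encodes the trithorax group protein Taranis. A further peak 1134 bp upstream of the same start site had a signal of 634 in replicate 2 and 534 in replicate 3, and another one, at 3809 bp, had 123 and 39.5 in replicates 2 and 3. The sequence of the window at 1134 bp had a GC content of 23.8%, and that at CG31668 24.8%.

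Signal, a positive number per peak on a scale that no label or header states, ran from 146 to 1958 among the intergenic proximal peaks. The median was 211 (95% interval of the median 203 to 220), against 218 (214 to 221) in the other 5250 peaks. Intronic peaks at the same distance from a start site had a median of 225 (219 to 232), and intergenic peaks 5000 bp or more away had 214 (204 to 221). These medians differ by little beside the spread among peaks, since the central 50% of the intergenic proximal peaks ran from 174 to 290. They were not tested, because peaks of 1 list are not replicates. Of the 500 strongest peaks of the list 34 were intergenic proximal and 254 were promoter peaks, where these classes make up 10.2% and 34.1% of the list. Among the 1461 strongest peaks were 22.1% of the intergenic proximal peaks, against 25.3% of the other peaks. The q-values of the intergenic proximal peaks, deposited on the -log10 scale, reached the top value of 3.92 in 70.4% of cases. The same share was not computed for the whole list, so it does not set this class apart.

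The 20 strongest intergenic proximal peaks had signals from 665.6 to 1958 and ranked within the first 294 of the whole list, the first 407 of replicate 2 and the first 360 of replicate 3. Each is named by the gene with the nearest protein-coding start site. That gene need not border the gap with the summit, which for DNAlig3 lay between Sol1 and Cyp9f2. After tara came CG31668 (signal 1503), then CycB (1443), which encodes mitotic cyclin B, then Rh5 (1216) and CG43131 (1179). Next were jp (1002), which encodes junctophilin, foxo (922.4), the forkhead factor of insulin signalling, CG5953 (896.4), DNAlig3 (871.7), a DNA ligase gene, and nub (801.2), a POU domain factor gene. After these stood RasGAP1 (771.7), which encodes a negative regulator of Ras, CG33453 (768.5), sp3 (745.9), slp2 (718.3), a forkhead factor gene of head and segment patterning, and Fbxl7 (711.1), an F-box protein gene. Lower in the list stood the gene by (692.1), which encodes the focal adhesion protein tensin, CG17896 (667.2) and CG14662 (665.6). Of the 20 summits 16 lay upstream of the nearest start site and 1, at Rh5, had TAATCC within 50 bp. Over all 594 intergenic proximal peaks 73.9% lay upstream and 9.93% had TAATCC, so these 2 counts do not set the strongest peaks apart. Mean GC content in these 20 windows was 34.6% ± 9.5 (SD across peaks, n = 20), against 39.3% in their own flanks.

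Both libraries contributed to the intergenic proximal peaks. A summit of replicate 2 lay within 100 bp of 574 of them (96.6%, 94.9 to 97.8), and one of replicate 3 lay within 100 bp of 573 (96.5%, 94.7 to 97.7), a mean of 96.5% ± 0.119 (SD, n = 2). Shares are followed by 95% Wilson intervals, which cover counting error only. Summits of both replicates were found for 553 (93.1%, 90.8 to 94.9), against 93.6% of the 5844 peaks of the list. There were 0 found in neither replicate, which allows a share of up to 0.643%. The IDR list was derived from these same replicate lists and a shared control, so a high share is built in. Signal ranged from 23.4 to 1050 with a median of 118 in replicate 2, and from 19.5 to 912.9 with a median of 100 in replicate 3. Among the 5844 strongest peaks of their own list were 515 of the summits found in replicate 2 and 464 of those found in replicate 3. The same shares were not computed for the whole IDR list. Relative to all peaks found in both replicates, the median of the intergenic proximal peaks was 0.987 times that of the list in replicate 2 and 0.95 times in replicate 3. Across the 553 peaks with both values the Spearman rho between replicates was 0.630 and the Pearson r of log2 signal 0.746, as a description of peaks that share libraries and a control. Single peaks could differ widely between replicates, as did one at comm, which encodes the midline sorting receptor Commissureless, with 48.0 in replicate 2 and 115 in replicate 3.

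**Figure D1:**
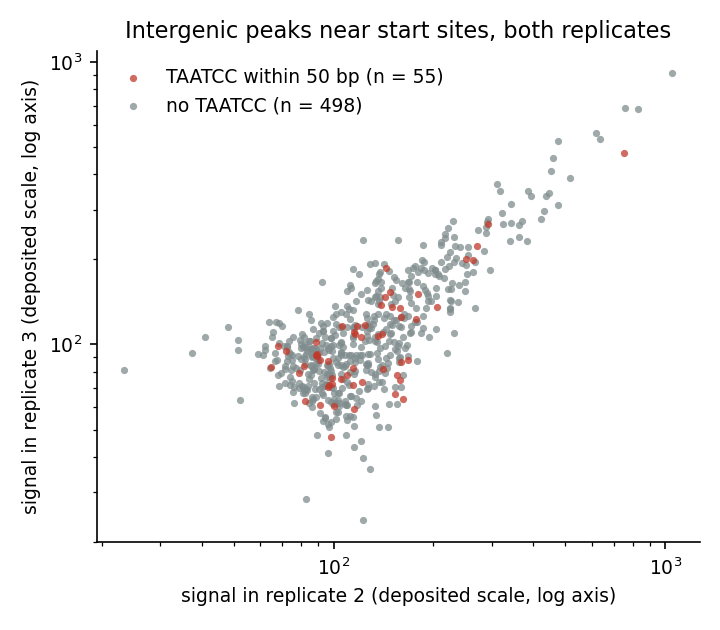
Signal of each intergenic proximal peak in replicate 2 (x axis) and replicate 3 (y axis), on log axes in the deposited scale; each point is 1 peak found in both replicates, and red points have TAATCC within 50 bp of the summit. The strongest peaks follow a line up to tara at 1050 and 913, and red points lie throughout the range.

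The rule used the distance to a start site but not the side, the strand or the density along it. The sequence that met the rule, counted base by base over the arms without gaps, came to 12.7 Mb, or 9.28% of the genome arms. It held 46.7 peaks per Mb (exact Poisson interval 43.0 to 50.6), against 42.2 peaks per Mb in all other sequence. Intronic sequence at 500 to 5000 bp from a start site held 64.3 peaks per Mb, and intergenic sequence 5000 bp or more away held 23.9. Within the class the density was lower in each bin farther from the start site. It was 63.3 per Mb (52.8 to 75.3) at 501 to 999 bp, 47.3 (40.2 to 55.3) at 1000 to 1999 bp, 46.2 (38.7 to 54.8) at 2000 to 2999 bp, 41.1 (33.4 to 49.9) at 3000 to 3999 bp and 36.9 (29.2 to 46.2) at 4000 to 4999 bp. The intervals of the nearest and the farthest bin did not overlap, and those of all neighbouring bins did. The median distance was 2080 bp, against 2340 bp over all eligible bases.

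**Figure D2:**
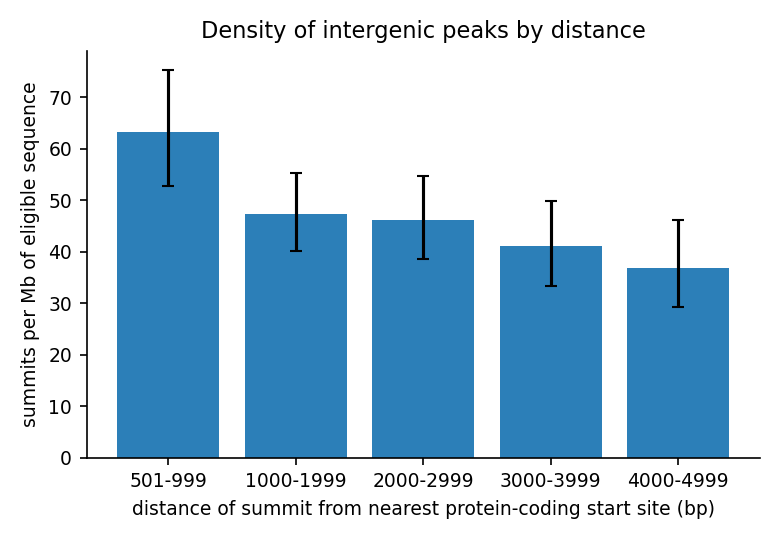
Intergenic proximal peaks per Mb of sequence that meets the position rule (y axis), in bins of distance from the nearest protein-coding start site in bp (x axis); bars are counts per Mb and error bars exact 95% Poisson intervals. The bar at 501 to 999 bp stands at 63.3 and the last at 36.9.

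Most of these peaks lay before genes. Upstream of the nearest start site were 439 summits (73.9%, 70.2 to 77.3), and 69.3% of the eligible sequence is upstream. Upstream sequence held 49.8 peaks per Mb (45.2 to 54.7) and downstream sequence, beyond the 3' end of the gene, 39.7 (33.7 to 46.5). Between divergent genes, whose start sites face each other across the gap, lay 226 summits at 57.0 per Mb (49.8 to 64.9). Between genes in tandem lay 284 at 42.7 per Mb (37.9 to 48.0), and between convergent genes 84 at 40.6 per Mb (32.4 to 50.2). TAATCC was within 50 bp of 36 upstream summits (8.20%, 5.98 to 11.1) and 23 downstream summits (14.8%, 10.1 to 21.3), with overlapping intervals. The density interval for divergent gaps lay above that for tandem gaps and overlapped that for convergent gaps. Overlap of intervals, for sites or for densities, does not show that groups are alike, and these differences were not tested. Among arms the density was 63.1 per Mb on 3L (53.9 to 73.4), 49.9 on 2L, 43.2 on 2R, 42.5 on 4, 42.0 on 3R and 34.0 on X (26.2 to 43.3). The sequence of Y that met the rule, 0.0768 Mb, held 0 peaks. Copies of X per genome were not known, since the labels record no sex, and mappability was not measured.

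Median signal hardly varied between the distance bins above or between the sides of the start site. Between divergent genes it was 220 (209 to 239) and between tandem genes 202 (191 to 217), and the difference was not tested. By bin, the median was 213 nearest to start sites and 207 in the farthest, and by side it was 212 upstream against 209 downstream. The Spearman rho of signal with distance was -0.0321 over 594 peaks that share their libraries. At the lower limit of the rule, 39 peaks had a start site at 501 to 600 bp, with a median signal of 228, and 54 intergenic peaks left out by the rule, at 401 to 500 bp, had 214. TAATCC was within 50 bp of 3 of the 39 and of 1 of the 54. At the upper limit, 39 peaks at 4500 to 4999 bp had a median of 175, and the 27 left out at 5000 to 5499 bp had 188. TAATCC was within 50 bp of 6 of those inside and of 2 of those outside.

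TAATCC was more frequent at the summits of the intergenic proximal peaks than beside them. It occurred on either strand within 50 bp of 59 summits (9.93%, 7.78 to 12.6), against 8.30% of all peaks of the list. Windows of the same length centred 500 bp to either side held it in 42 of 1188 cases (3.54%, 2.63 to 4.74), and so did 3.47% of all windows of that length centred on sequence that met the rule. The log2 ratio of summits to flanks was 1.49. In the 5844 strongest peaks of each replicate, taken separately, the same position rule gave 609 peaks in replicate 2 with TAATCC in 8.70% (6.72 to 11.2) and 548 in replicate 3 with 8.58% (6.51 to 11.2), at log2 ratios of 1.17 and 1.20. Within 200 bp of the summit the density of TAATCC reached 1.35 sites per kb per peak in the 20 bp to its left. In the bins from 100 to 200 bp it was between 0.253 and 0.421 on the left and between 0.337 and 0.673 on the right. The 59 peaks held 61 sites, 33 on the minus and 28 on the plus strand.

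**Figure D3:**
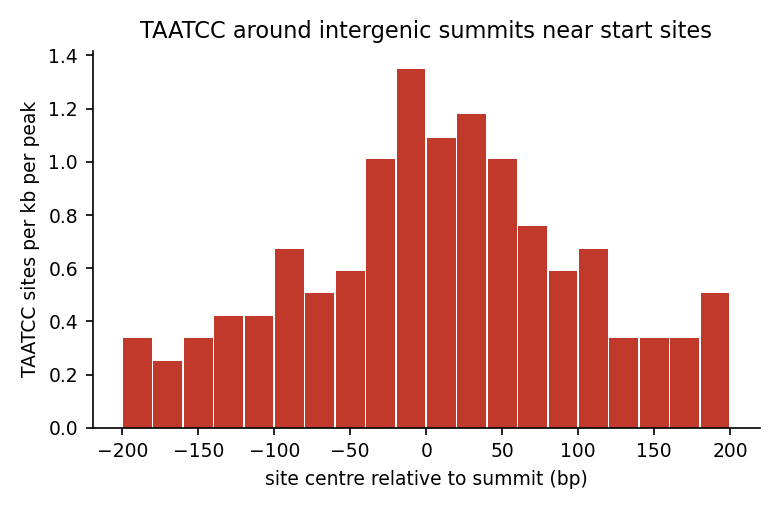
Density of TAATCC on either strand around the summits of the 594 intergenic proximal peaks, as sites per kb per peak (y axis) in bins of 20 bp from the summit (x axis). The highest bar, at 1.35, is just left of the summit, and bars beyond 120 bp stay at or below 0.505.

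Against other classes the share of TAATCC was lowest at promoters, and the intervals were wide. Intronic peaks at 500 to 5000 bp had it in 8.73% (7.37 to 10.3), 1.2 percentage points below the intergenic proximal peaks with a Newcombe 95% interval of the difference from -1.47 to 4.2. Intergenic peaks farther away had it in 12.6% (10.2 to 15.5), so the difference of proximal minus far was -2.69 points (-6.26 to 0.893). Both intervals include 0, which does not show that the classes are alike. Promoter peaks had it in 5.77%, and that difference was 4.16 points (1.74 to 6.99). Log2 ratios to the flanks were 1.49 for intergenic proximal peaks, 1.49 for intronic peaks, 1.76 for far intergenic peaks and 0.63 at promoters. The lower share at promoters was known from earlier results of these data and is no independent evidence.

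**Figure D4:**
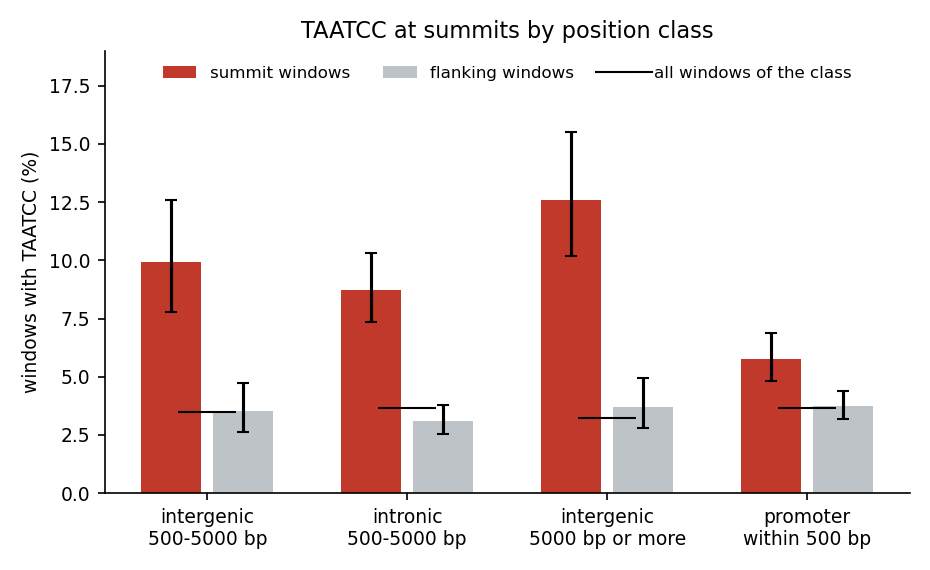
Share of windows of 50 bp either side with TAATCC (y axis, %) at summits (red) and in the flanks of the same peaks (grey), by position class (x axis), with 95% Wilson intervals; black marks give the share in all windows of each class. Intergenic proximal peaks stand at 9.93% against 3.54% in their flanks, and promoters at 5.77% against 3.74%.

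The variant TAAGCC, also bound by this class of homeodomain, occurred within 50 bp of 44 intergenic proximal summits (7.41%, 5.56 to 9.80), against 3.20% of their flanks and 4.48% of all eligible windows, a log2 ratio of 1.21. For sites of other homeodomains the intervals at summits and flanks overlapped. TAATTA occurred at 6.40% of summits and in 6.90% of flanks, TAATTG at 10.3% of summits and in 9.26% of flanks. The promoter elements TATCGATA, bound by DREF, and GGTCACAC, called Motif 1, were rare here, in 2 and 5 of the 594 windows. Each was in 1 of the 1188 flank windows. Promoter peaks had 1.86% and 1.51%, and all eligible windows 0.207% and 0.124%. Log2 ratios to the flanks were 2.0 and 3.32, the highest of the 15 motifs, but they rest on very few windows. GAGAGAG, the GAGA factor site, was in 2.36% (1.41 to 3.92) against 1.35% of flanks, and the Zelda site CAGGTAG in 0.673% against 0.589%. The E-box CATATG was in 1.85% (1.04 to 3.29) against 3.79% of flanks (2.84 to 5.03) and 3.15% of all eligible windows, and its share at intronic peaks of the same distance was 4.15%, and its intervals at summits and flanks overlapped. CAGCTG (4.04% against 3.62%), CAGGTG (2.69% against 3.87%), AGATAAG (1.52% against 2.10%), TTTATTG (3.87% against 5.22%), CACACACA (3.03% against 1.85%) and AAAAAAA (8.25% against 10.6%) had overlapping intervals at summits and flanks. Overlap of intervals does not show that the shares at summits and flanks are alike. All 15 motifs were sought on both strands, and no test was made.

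TAATCC had no steady order by signal inside the class. With the peaks split by signal into 4 groups of 148 or 149, it occurred in 10.7% of the weakest, then in 8.11%, 12.8% and, in the strongest, 8.05% (4.67 to 13.5), with log2 ratios to their flanks of 1.83, 0.50, 2.08 and 1.78. TAAGCC occurred in 4.03%, 7.43%, 10.1% and 8.05% in the same order. Below the IDR list, 2939 peaks of the pooled list met the same position rule with signals from 34.5 to 145.9, and TAATCC was in 5.89% of their windows (5.09 to 6.80), a log2 ratio of 0.88. Median signal was 219 (186 to 239) in the 59 peaks with TAATCC and 210 (203 to 220) in the 535 without it. Mean GC content was 43.9% ± 9.49 (SD across peaks) with the site and 40.9% ± 10.6 without it. Over the class, summit windows averaged 41.2% GC against 40.1% in the flanks, while the other peaks averaged 39.5% against 41.5%. The strongest of the 4 groups stood at 39.3% and the weakest at 42.0%, and the Spearman rho of signal with GC content was -0.116 over the 594 peaks.

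The 594 peaks were nearest to the start sites of 458 protein-coding genes, or 7.33% of the 6251 genes to which any eligible base was nearest. Nearness to a start site does not show which gene a peak acts on. A single peak was found at 359 of these genes, and 99 had 2 or more. CG43245 had the most, with 5 peaks and signals from 157.8 to 640.7. Rh5 had 4, and so did chinmo, which encodes a BTB zinc finger factor of neuronal temporal identity, with signals of 653.3, 444.1, 214.0 and 160.4, all upstream. The other genes with 4 peaks that lead by signal were CG15283, CG13898, CG46443, verm, Gr93a, E(spl)malpha-BFM and Ids. Among the 458 genes 128 (27.9%, 24.0 to 32.2) also had a peak at one of their own promoters, against 12.1% of the other 5793 genes. The genes with an intergenic proximal peak had more sequence that could hold one, with a median of 3.56 kb against 0.934 kb, and its part in this difference was not tested. For 214 genes no other peak of the list was nearest to their start sites. Another summit lay within 1000 bp of 158 intergenic proximal summits (26.6%), against 21.4% of all summits in the list. Intervals of neighbouring intergenic proximal peaks overlapped in 14 cases, and 1 summit lay in an annotated transposable element insertion.

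The 4 peaks at Rh5 surrounded the gene. Their summits stood 618 and 1299 bp upstream and 2322 and 4208 bp downstream of the start site, and they made up all the summits assigned to this gene. Signals in replicate 2 were 229, 212, 748 and 184 in that order. In replicate 3 they were 273, none within 100 bp, 475 and 187. The peak with TAATCC was the strongest in both libraries.

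Head and anterior patterning genes often had intergenic proximal peaks. Of the 19 genes of that list with eligible sequence 8 had one, with 13 peaks, where the class density over the same 97.4 kb gives 4.55. slp2 had 2, the stronger 4307 bp upstream with 386 in replicate 2 and 348 in replicate 3. oc itself had 2, at 4788 and 3968 bp upstream, with signals of 478.7 and 161.6, and the weaker one held a TAATCC. D, which encodes the Sox factor Dichaete, had 2 with signals of 264.9 and 177.9, the weaker with TAATCC, and tll, a nuclear receptor gene that specifies the brain anlage, had 2 at 262.1 and 186.5. slp1 (256.3), croc (230.1), a forkhead factor gene, and kni (226.1), a gap gene of the nuclear receptor class, had 1 each, and knrl, its paralog, had 2 (207.6 and 169.1). The remaining 11 genes of the list with eligible sequence had none. TAATCC was thus at 2 of the 13 summits.

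Genes of segment patterning and of signalling pathways also had such peaks. In the pair-rule and segment polarity list 6 of 20 genes had one, with 8 peaks against 4.79 at class density, led by slp2, H15 (310.2), a T-box gene, slp1 and the homeobox gene en (248.2). The pair-rule gene eve had 1 peak of 174.3 with a TAATCC. In the list of Wnt, Hedgehog, Dpp and EGFR signalling 4 of 17 genes had one, namely fz (321.3), a Wnt receptor gene, Wnt4 (232.8), the Hedgehog receptor gene ptc (218.4) and dpp (149.8), with 6 peaks against 2.56. In the Notch list 5 of 13 genes had one and 7 peaks stood against 1.06 at class density. They were at Ser (381.8), which encodes a Notch ligand, fng (364.6), which encodes the glycosyltransferase that tunes ligand choice, E(spl)m5-HLH (276.0), E(spl)mgamma-HLH (259.4) and 1 further gene. The weaker peak of Ser held a TAATCC.

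Organ and nervous system lists gave small counts. In the list of the CNS midline and axon guidance 4 of 9 genes had a peak, comm2 (615.1), robo2 (259.9), a receptor gene, sli (246.4), which encodes the midline repellent, and comm (173.0), with 6 peaks against 1.46 at class density. Trachea and salivary gland genes stood at 5 of 12, led by the chitin deacetylase gene verm (376.7, 4 peaks), CrebA (268.4), kni and knrl, with 9 peaks against 1.87. Gut genes stood at 4 of 11, with the homeobox gene dve (369.9), the forkhead gene bin (282.7), bowl (177.2), a zinc finger gene, and the GATA factor gene srp (168.8), and 6 peaks against 1.10. Mesoderm and muscle genes stood at 5 of 16, led by bin, how (271.3), eve and Dr (168.1), with 7 peaks against 2.96. Retinal determination genes stood at 3 of 12, with eya (401.7), Optix (195.0) and so (156.4), and 4 peaks against 1.81. Photoreceptor genes stood at 3 of 12, with Rh5, oc and inaD (230.3), and 7 peaks against 2.02. Of these 7 peaks 4 were at Rh5 and 2 at oc, which is also in the head list. The other rhodopsin genes of the list, ninaE, Rh2, Rh3, Rh4 and Rh6, had 0 summits of any class. Among them only ninaE (0.965 kb) and Rh3 (8.11 kb) had eligible sequence. Neuroblast genes stood at 2 of 13, nub (801.2) and pdm2 (168.6), with 2 peaks against 2.62, and epidermal genes at 1 of 9, ed (351.5), with 2 peaks against 1.04.

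Other lists were at or below the background. Odorant and gustatory receptor genes stood at 5 of 75 (6.67%), led by Gr93a (355.9, 4 peaks), Gr89a (301.3), Or56a (226.7) and Gr93d (173.0), with 8 peaks against 10.3 at class density. Cytosolic ribosomal protein genes stood at 1 of 37, RpS23 (147.9), with 1 peak against 3.13. The Hox genes had 0 peaks in 21.0 kb of eligible sequence, where 0.983 is the number at class density, too few for a difference to be seen. Each count is read against 7.33% of all genes with eligible sequence and against the length of that sequence. These lists share members and hold neighbouring genes, and no test was made of them.

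**Figure D5:**
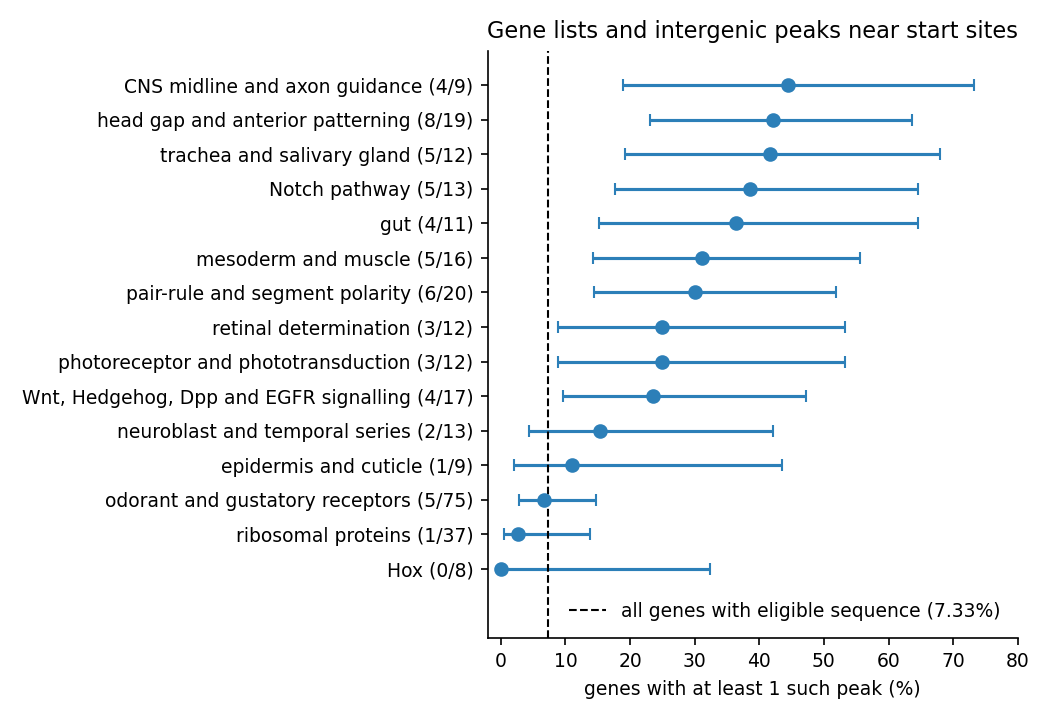
Share of genes with at least 1 intergenic proximal peak (x axis, %) among the genes of each list with eligible sequence (y axis, counts in brackets); points are shares, error bars 95% Wilson intervals and the dashed line the 7.33% of all genes with eligible sequence. CNS midline (4 of 9) and head gap genes (8 of 19) stand highest and Hox genes (0 of 8) lowest.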

How the data were processed

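Both libraries are ChIP-seq of Oc-GFP embryos, as labelled. The 4 lists used are a peak list per replicate, a pooled list (30000 peaks each) and the optimal IDR list, all on dm6 per the deposited description files. The deposited signal values have no stated scale, q-values were deposited as -log10 values, and the deposited summit offsets are other positions in bases counted from 0. The IDR threshold, the aligner, the peak caller and the read number are not given in the sources used here, so depth is unknown.

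The tools were scipy 1.17.1, pandas 2.3.3, matplotlib 3.10.9 and numpy 2.4.6 under Python 3.11.15, with the RefSeq release 6 sequence and the Ensembl 115 annotation (BDGP 6.54). Insertions of transposable elements were not counted as genes, and every transcript start counted as a start site. The classes, nearest genes and motif search were tested on simulated data. No p-value was computed, because there is 1 group of 2 libraries.

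The members, lists and motifs were chosen with earlier results of these data known. Of 228 listed entries 4 matched by synonym and 3 matched no gene name. Named are the genes of the 20 strongest members (1 is not reported here), the 10 genes with most members (an eleventh, with the same number, is not), oc, every head gap gene with a member and up to 4 genes per other list. Sequences follow signal, 6 with TAATCC and 4 without, and none is from arm 2R. comm, the positions of the Rh5 peaks, the other rhodopsin genes and the E(spl) peaks were picked after their values were seen. Alternatives changed distance limits, peak position, annotation, matching distance, windows, flanks, signal and replicates.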

Additional observations from a re-analysis of the deposited data

How the results depend on the processing

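The number of peaks, their density and the number of genes stayed within 1.5 times the reported values under all alternatives run. The number was 417 to 843 with other distance limits, 594 with interval centres and 703 with protein-coding genes only. Leaving out a replicate gave 548 and 609 peaks. The share upstream was 69.9% with a lower limit of 1000 bp and 79.1% with an upper limit of 3000 bp. No matching share of eligible sequence is given for these limits, so the 2 values do not show a change in the peaks. Median signal was 100 to 118 without a replicate, on each replicate's own deposited scale. The share found in both replicates was 75.3% within 50 bp, 97.8% within 200 bp and 98.3% by overlap. TAATCC occurred in 5.89% of windows of 25 bp either side and in 16.5% of 100 bp either side, which follows from their width. Its log2 ratio to the flanks was 1.95 in the 297 stronger peaks, 1.81 and 1.26 in those windows, 1.33 against flanks 1000 bp away, and 1.17 to 1.20 without a replicate; the cause was not tested. Counting transposable elements as genes, 1 start site per gene and leaving out the 2 peaks nearest oc were chosen after seeing the data. They gave, in that order, 586 peaks, 585 peaks and a TAATCC share of 9.80%. Other peaks in the gaps beside oc, nearest to other genes, stayed in. Of 53 alternative values 43 stayed within their interval or limit. No paired analysis was possible because there is 1 group. Read depth is unknown, so precision rests on counts of peaks.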

Other observations

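At the E(spl) complex, a cluster of Notch target genes, 11 intergenic proximal peaks lay between positions 26002867 and 26034855 of 3R. Of these, 10 were nearest to 6 E(spl) genes, with signals from 147 to 331, and the other to Kaz-m1, with 181.0. TAATCC was within 50 bp of 4 of the 10 summits, at E(spl)m2-BFM, E(spl)m6-BFM, E(spl)malpha-BFM and E(spl)m4-BFM. It was at 9.93% of all intergenic proximal summits and 8.3% of all summits of the list. A number of peaks at class density was not worked out for the cluster. The cluster was picked after its values were seen, and the counts were not tested.

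Among 1179 of 2080 6-mers (joined with their reverse complements) that occurred in at least 20 summit windows of the class, TAATCC ranked 1 by the ratio of summits to flanks, followed by CGGGCC (3.54% against 1.26%) and CGAGAG (5.89% against 2.27%). TAAGCC ranked 7. The filter used counts in the same summit windows, so 6-mers rare there could not enter. TAATCC and CGGGCC both had a log2 ratio of 1.49. The ranking is a description of 594 windows, adds no independent support for TAATCC, and no call was made.

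The base after TAATCC was G at 19 of the 61 sites (31.1%, 20.9 to 43.6), C at 18, T at 14 and A at 10. Of all 4744 TAATCC in sequence that met the rule, G followed 17.4% and A 32.6%. At 4 of the 61 sites (6.56%, 2.58 to 15.7) the core was followed by GNTTA, where N is any base, as at 31 of the 4744 (0.653%). This extension was noticed in the printed sequences and counted afterwards in the same data. The 4 sites follow on the strand of the core, 5' to 3', with TAATCC in capitals, to let the extension be read.
CG17564, chr2L:19296941-19296960, minus strand, signal 556.3: actaaatTAATCCgcttagc
klg, chr3R:22895534-22895553, minus strand, signal 491.1: cagcactTAATCCgcttaaa
Sems, chr3L:20953948-20953967, plus strand, signal 342.6: ttacattTAATCCgattaaa
CG13287, chr3L:5878921-5878940, plus strand, signal 200.9: gcattttTAATCCgtttaaa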
